A study of Mus musculus with 20 samples.

Results

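The 10 genes described here are the mouse Tead transcription factor genes (Tead1, Tead2, Tead3 and Tead4) and 6 genes of the Hippo pathway that acts on them (Yap1, Wwtr1, Lats1, Lats2, Amotl2 and Nf2). They were chosen by symbol, 10 of the 34937 genes with counts, and each symbol matched 1 gene. Their RNA was measured in 19 single 8C embryos at E2.5 from a mixed background. The 9 control embryos (Ehmt2Cntr, maternal genotype Ehmt2 Maternal WT) came from Ehmt2F/+ Zp3-Cre females, and 3 of them had the zygotic genotype +/- and 6 had +/+. The 10 maternally depleted embryos (Ehmt2Mat, Ehmt2 Maternal KO) came from Ehmt2F/- Zp3-Cre females, and 5 of them were -/- and 5 were +/-. Both kinds of mother carried Zp3-Cre, whose promoter is active in growing oocytes, and both were crossed with Ehmt2+/- males. Ehmt2 encodes G9a, a methyltransferase of histone H3 lysine 9. The study asked whether loss of the maternal G9a pool alters transcription at 8C, and the comparison is Ehmt2Mat with Ehmt2Cntr.

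TEAD proteins bind DNA but activate genes only together with a coactivator, YAP (Yap1) or TAZ (Wwtr1). When Hippo signalling is on, the kinases LATS1 and LATS2 phosphorylate both coactivators and keep them out of the nucleus, and merlin (Nf2) and the angiomotins (Amotl2 among them) help LATS to do so at cell junctions. In the mouse preimplantation embryo, outer cells keep Hippo signalling low, and TEAD4 with YAP then turns on genes of the trophectoderm such as Cdx2, while inner cells keep it high.

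Total counts were 8231646 to 30602434 per embryo, so that 3 counts were worth between 0.098 and 0.364 CPM (counts scaled to a common library size, with TMM factors). Mitochondrial genes took 6.47 to 20.4% of the counts in controls and 8.03 to 21.7% in Ehmt2Mat embryos. Genes with at least 1 count numbered 12068 to 13230 in 8 controls, 16142 in control embryo 10 and 12754 to 16412 in Ehmt2Mat embryos, 8 of 10 of which lay above those 8 controls. On the first principal component of log2 CPM (15.3% of the variance), 8 controls scored between -79.0 and -49.6 and the Ehmt2Mat embryos between -3.0 and 133.5, while control embryo 10, at 26, lay among the Ehmt2Mat embryos. No mother or litter is named in the labels, so an effect of litter and the maternal genotype cannot be told apart, and the p-values measure the spread between embryos. Each library is a whole embryo, in which fewer cells of a kind and less RNA per cell cannot be told apart. All 8 markers of the preimplantation embryo (Pou5f1, Nanog, Dppa3, Dppa5a, Tdgf1, Cdh1, Esrrb and Sall4) passed the filter on low counts, with a summed level of 2241 to 4141 CPM in controls and 2812 to 3930 CPM in Ehmt2Mat embryos. Of these, Sall4 fell (log2 fold change -1.07, adjusted p = 0.0016). Of 9 oocyte transcripts, 8 were tested (Mos was below the filter) and Oosp1 rose (log2 fold change 2.70, adjusted p = 0.0028). The summed oocyte transcripts had 56.1 to 354 CPM in controls and 125 to 398 CPM in Ehmt2Mat embryos. Of 10 markers of cumulus, granulosa or other somatic cells, only Vim passed the filter. Ptx3, Has2, Foxl2 and Amh had no count in any of the 19 embryos. The summed somatic markers had 0.046 to 79.3 CPM (median 3.86) in controls and 0 to 190 CPM (median 11.7) in Ehmt2Mat embryos. The highest levels in controls and Ehmt2Mat embryos were 52.5 and 123 CPM for Vim and 0.13 and 38.2 CPM for Inha. For Col1a1 they were 10.4 and 22.4 CPM (medians 0 and 3.34 CPM), and for Inhba 0 and 1.94 CPM. Col3a1 (16.3 and 13.7 CPM, medians 0 and 1.63 CPM) and Cyp19a1 (4.97 and 0.47 CPM) reached more in controls. The part of these differences in the results below was not tested.

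Ehmt2 itself (chromosome 17, 34898469 to 34914052, GRCm38) had a lowest, median and highest level of 66.6, 133 and 253 CPM in controls and of 58.7, 94.9 and 159 CPM in Ehmt2Mat embryos. The ranges overlapped, and the difference of -0.47 on the log2 scale (standard error 0.24) had an adjusted p of 0.233 (quasi-likelihood test of edgeR, adjusted after Benjamini and Hochberg over 11754 genes, as for all adjusted p-values unless another tool is named). The counts cover all exons of the gene, so they do not separate transcripts of the intact and the recombined allele and are no check of the labels.

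RefSeq promoter windows (GRCm38.p6, 250 bases before to 50 bases after each start site) were at hand for 8 of the 10 genes, not for Tead1 and Tead4. They were searched on both strands for GGAATG, the core of the sequence that TEAD proteins bind, whose reverse complement is CATTCC, with overlapping matches allowed. The bases before the start site are printed for 3 genes to which the results return: Tead2, a member called lower in Ehmt2Mat embryos, Amotl2, which is both a Hippo component and a known target of YAP with TEAD, and Ccn1, a classical YAP target outside the 10 genes. Each runs 5′ to 3′ on the strand of its gene, and capitals mark GGAATG or CATTCC.
Tead2 (chr7:45215542-45215791, + strand): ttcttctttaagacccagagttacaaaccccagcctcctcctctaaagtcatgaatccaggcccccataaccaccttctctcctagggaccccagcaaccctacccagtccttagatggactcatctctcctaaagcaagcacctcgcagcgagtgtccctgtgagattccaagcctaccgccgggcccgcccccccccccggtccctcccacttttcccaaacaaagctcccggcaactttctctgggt
Amotl2 (chr9:102717554-102717803, + strand): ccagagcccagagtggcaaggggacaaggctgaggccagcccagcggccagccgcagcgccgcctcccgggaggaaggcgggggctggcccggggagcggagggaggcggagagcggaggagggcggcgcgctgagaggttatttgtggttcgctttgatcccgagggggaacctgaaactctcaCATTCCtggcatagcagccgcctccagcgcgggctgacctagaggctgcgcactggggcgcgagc
Ccn1 (chr3:145649986-145650235, - strand): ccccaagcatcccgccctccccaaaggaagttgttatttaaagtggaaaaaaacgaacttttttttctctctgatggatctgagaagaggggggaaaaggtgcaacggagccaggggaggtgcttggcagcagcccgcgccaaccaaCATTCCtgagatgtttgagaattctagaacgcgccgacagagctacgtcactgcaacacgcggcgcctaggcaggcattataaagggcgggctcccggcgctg
The letters began 65 bases before the start site of Amotl2 and 103 bases before that of Ccn1, and the Tead2 window held none. Among the 8 members with a window, 5 held the letters in at least 1 window (Tead3, Yap1, Wwtr1, Lats2 and Amotl2), and Tead2, Lats1 and Nf2 did not. Of all 32851 windows, 14.7% held them, and of all 27025 genes with a window, 16.6% did. Genes with more than 1 window, such as Tead3, Wwtr1 and Lats2, had more chances of a match. Of 10 genes with a window in the list of TEAD targets and trophectoderm genes used below, 4 held the letters (Elf5, Ccn1, Ankrd1 and Axl). Cdx2, Gata3, Krt8, Krt18, Eomes and Sox2 did not. A match describes the letters in a window and is no evidence of binding, and its absence says nothing about the factor.

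Per length, Tead4 was the most abundant of the 10 transcripts in both groups. By CPM, without division by length, Yap1 ranked 1 in controls (median 264 CPM) and Tead4 ranked 2 (253 CPM). In Ehmt2Mat embryos Tead4 ranked 1 by CPM too. Levels of different genes are given in RPKM (CPM per kilobase of exon), and the amplification favours the 3′ ends of transcripts, which division by length does not correct. In controls the order of median RPKM was Tead4 (70.3), Nf2 (31.7), Yap1 (28.6), Wwtr1 (22.9), Lats2 (10.9), Lats1 (7.97), Amotl2 (5.84), Tead1 (3.07), Tead2 (2.06) and Tead3 (0.14). The ranges of all neighbours in this order overlapped over the 9 controls, although Tead4 was above Nf2 in 9 of 9. In Ehmt2Mat embryos, Amotl2 moved up to a place before Lats2 and Lats1 (14 RPKM), and the rest of the order was as in controls. There the range of Tead4 (65.1 to 185 RPKM) lay wholly above that of Nf2 (13.2 to 49.8 RPKM), and that of Tead1 wholly above that of Tead2. The members also differed in their spread between control embryos. The coefficient of variation of CPM was lowest for Wwtr1 (21.5%), Tead4 (25.4%) and Yap1 (25.5%) and highest for Tead2 (94.8%) and Amotl2 (95.3%).

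All 10 members passed the filter on low counts, and 2 of them passed an adjusted p of 0.05 in the maternal comparison: Tead4 rose and Tead2 fell in Ehmt2Mat embryos. Of all 11754 genes tested, 9.35% passed, 4.37% higher and 4.98% lower, so the count of 2 members, 1 in each direction, was not far from the share of all genes. At an unadjusted p of 0.05, 3 members passed (Amotl2 in addition), against 23.3% of all genes tested. The groups were free of overlap in CPM for 0 of the 10 members and for 0.519% of all genes tested. The median log2 fold change of the members was -0.18, with 7 of 10 negative. That of all genes tested was -0.043, with 52.4% negative. DESeq2 passed Tead4 and Tead2 too, and 9.53% of the 21185 genes with a count in any embryo. That is a wider set than the 11754 genes above, so the 2 percentages are not alike.

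**Figure D1:**
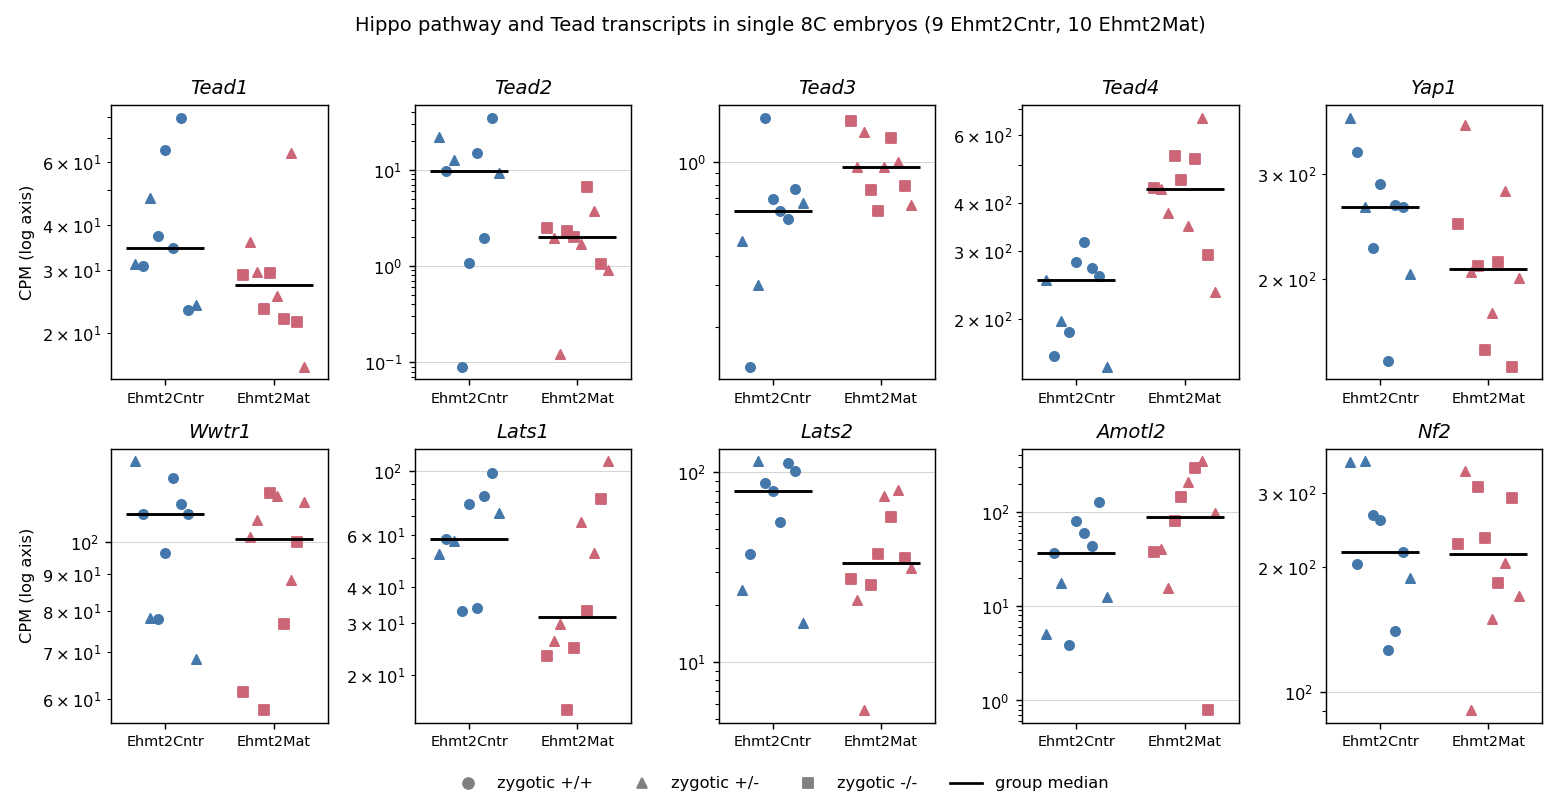
CPM of the 10 members in each embryo (y axis, logarithmic and scaled separately for each gene) by maternal group (x axis, 9 Ehmt2Cntr in blue and 10 Ehmt2Mat in red). Each point is an embryo, ordered by embryo number, its shape gives the zygotic genotype and the line is the group median, which rises from 253 to 435 CPM for Tead4 and falls from 9.62 to 1.99 CPM for Tead2.

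Tead4 (ENSMUSG00000030353, chromosome 6, 128224288 to 128300823, minus strand), the TEAD factor required for the trophectoderm, had 253, 161, 198, 185, 281, 317, 271, 259 and 151 CPM in control embryos 1 to 3 and 5 to 10. Ehmt2Mat embryos 1 to 10 had 437, 434, 376, 528, 460, 349, 521, 665, 293 and 234 CPM. Thus 8 of 10 Ehmt2Mat embryos were above every control, and embryos 9 and 10 lay within the control range. The study itself reported a higher Tead4 level in the depleted embryos of this series, with DESeq2. The log2 fold change was 0.90 (standard error 0.19, 95% confidence interval 0.50 to 1.30, adjusted p = 0.0046), a 1.86-fold higher level. It stayed between 0.81 and 0.97 when any single embryo was omitted, with adjusted p-values of 0.0015 to 0.0105. Control embryo 10, which lay with the Ehmt2Mat embryos on the first principal component, had the lowest Tead4 of all, and without it the log2 fold change was 0.84. Among the 8 embryos of zygotic genotype +/-, 3 controls had 151 to 253 CPM and 5 Ehmt2Mat embryos had 234 to 665 CPM. There the log2 fold change was 1.03 (standard error 0.36), and with 8 embryos its adjusted p was 0.65 (1 of 13401 genes passed).

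Tead2 (ENSMUSG00000030796, chromosome 7, 45215753 to 45233635, plus strand), a TEAD factor of the early embryo, had 21.8, 9.62, 12.7, 0.09, 1.06, 14.8, 1.95, 34.7 and 9.22 CPM in the same controls. Ehmt2Mat embryos 1 to 10 had 2.5, 1.96, 0.12, 2.34, 2.02, 1.71, 6.67, 3.74, 1.05 and 0.90 CPM. All 10 Ehmt2Mat embryos were below the control median and 6 of 9 controls were above every Ehmt2Mat embryo, but control embryos 5, 6 and 8 were as low as the Ehmt2Mat embryos. Control embryo 5 and Ehmt2Mat embryo 3 each had 1 count. The log2 fold change was -2.35 (standard error 0.74, 95% confidence interval -3.87 to -0.82, adjusted p = 0.0454). This call stood close to the threshold. Leaving out control embryo 5, 6, 8 or 10 or Ehmt2Mat embryo 7 kept it (adjusted p 0.0202 to 0.0495), and leaving out any of the other 14 embryos ended it (0.0535 to 0.113), with log2 fold changes between -2.69 and -1.94 in all 19 fits. Without the filter on low counts the adjusted p was 0.0557. It was 0.432 with the zygotic genotype as a covariate (log2 fold change -3.09) and 0.633 among the +/- embryos alone (-3.10). Since +/+ occurred only in controls and -/- only in Ehmt2Mat embryos, both estimates rest on the same +/- embryos, 3 controls and 5 Ehmt2Mat.

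Tead1 and Tead3 did not pass the test. Tead1 (ENSMUSG00000055320, chromosome 7, 112679318 to 112906807, plus strand), a TEAD factor widely used in later tissues, had a lowest, median and highest level of 23.2, 34.5 and 79.7 CPM in controls and 16.2, 27.2 and 63.4 CPM in Ehmt2Mat embryos. Its log2 fold change was -0.49 (95% confidence interval -1.08 to 0.11, adjusted p = 0.324), with 8 of 10 Ehmt2Mat embryos below the control median. Tead3 (ENSMUSG00000002249, chromosome 17, 28331671 to 28350805, minus strand), known from the placenta, was close to the limit of detection, with 3 to 26 counts per embryo. It had 0.14, 0.62 and 1.54 CPM in controls and 0.62, 0.95 and 1.48 CPM in Ehmt2Mat embryos, and the log2 fold change of 0.61 had an interval from -0.64 to 1.87 (adjusted p = 0.603). These counts do not tell changes of Tead3 within that interval apart, no change among them.

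The 4 Tead genes therefore contributed unequally to the summed Tead RNA, which had a median of 77.9 RPKM (46.1 to 94.4) in controls and 125 RPKM (66.9 to 192) in Ehmt2Mat embryos. Tead4 made up 88.1 to 93.3% of this sum in controls (median 90.8%) and 96.5 to 98.2% in Ehmt2Mat embryos (median 97.2%). The shares of Tead4 did not overlap between the groups, although the groups overlapped in the CPM of each of the 10 members. How often shares within other gene families separate these groups was not computed. The share of Tead2 was 0.035 to 9.13% in controls and 0.024 to 0.96% in Ehmt2Mat embryos, and exceeded 1% in 6 of 9 controls and in 0 of 10 Ehmt2Mat embryos. Tead1 took 2.53 to 8.55% in controls and 1.31 to 2.95% in Ehmt2Mat embryos. These shares combine members of which 2 were called in the same samples, and are given as a description without a test. Their size also depends on the division by exon length, which was 11237 bases for Tead1 and 3598 bases for Tead4.

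**Figure D2:**
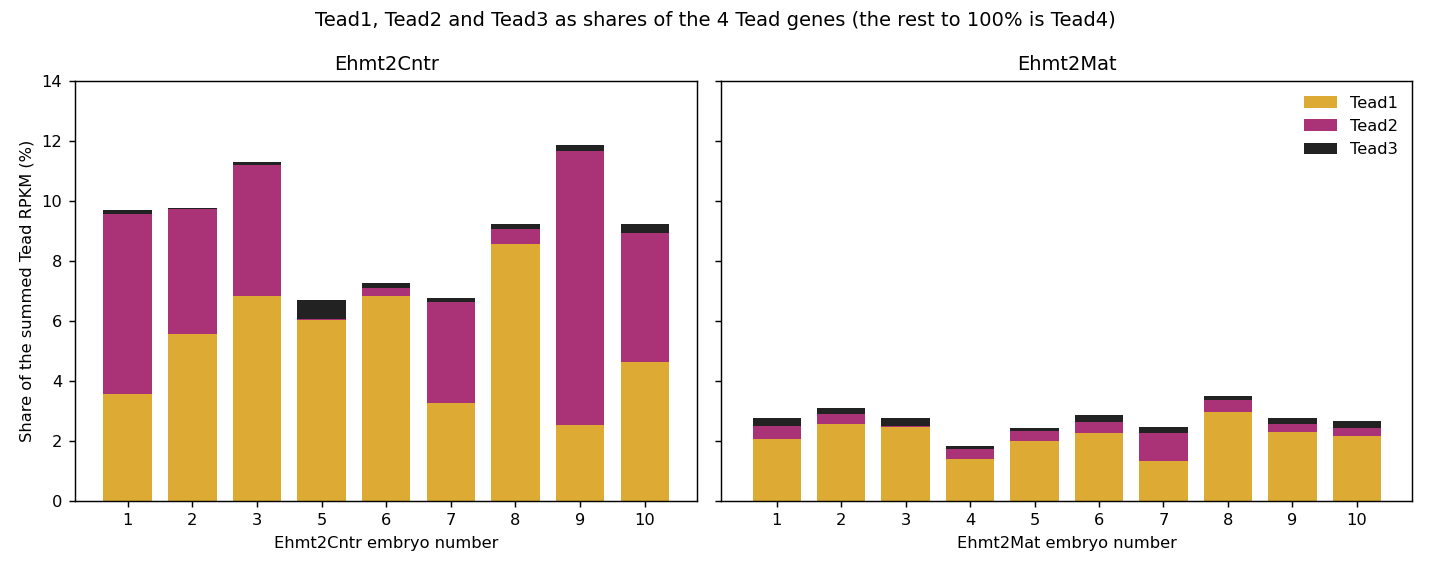
Share of the summed Tead RPKM (y axis, in percent, shown only as far as the bars reach) taken by Tead1, Tead2 and Tead3 in each embryo (x axis, embryo number), with the remainder up to 100% being Tead4. The stacked bars reach between 6.71 and 11.9% in the 9 Ehmt2Cntr embryos and between 1.84 and 3.48% in the 10 Ehmt2Mat embryos.

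The coactivators did not pass the test, and the confidence intervals of both lay between -0.65 and 0.28 on the log2 scale. Yap1 (ENSMUSG00000053110, chromosome 9, 7931999 to 8004596, minus strand) had a lowest, median and highest level of 145, 264 and 373 CPM in controls and 142, 208 and 363 CPM in Ehmt2Mat embryos. Its log2 fold change was -0.26 (95% confidence interval -0.65 to 0.13, adjusted p = 0.448). The ranges were nearly the same, although 8 of 10 Ehmt2Mat embryos lay below the control median. Wwtr1 (ENSMUSG00000027803, chromosome 3, 57455649 to 57575910, minus strand) had 68.5, 109 and 130 CPM in controls and 58.0, 101 and 117 CPM in Ehmt2Mat embryos. Its log2 fold change was -0.098 (95% confidence interval -0.48 to 0.28, adjusted p = 0.82). With the zygotic genotype as a covariate, or among the +/- embryos alone, this value was positive, 0.19 and 0.18. On RPKM, Yap1 exceeded Wwtr1 in 8 of 9 controls (ratio 0.61 to 1.75, median 1.5) and in 5 of 10 Ehmt2Mat embryos (ratio 0.67 to 2.07, median 1.21). The 2 sets of ratios overlapped widely. Of the Yap1 exon bases, 1.25% are shared with Gm20416, and reads there were counted for both genes.

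Neither of the kinases that restrain YAP and TAZ passed the test. Lats1 (ENSMUSG00000040021, chromosome 10, 7681209 to 7716458, plus strand) had a lowest, median and highest level of 33.0, 58.2 and 98.0 CPM in controls and 15.1, 31.5 and 108 CPM in Ehmt2Mat embryos. Of the latter, 5 were below every control and 1 was above every control. Its log2 fold change was -0.45 (95% confidence interval -1.13 to 0.23, adjusted p = 0.453). Lats2 (ENSMUSG00000021959, chromosome 14, 57642077 to 57758388, minus strand) had 16.0, 79.4 and 115 CPM in controls and 5.57, 33.3 and 80.5 CPM in Ehmt2Mat embryos. In 9 of 10 Ehmt2Mat embryos the level was below the control median. The log2 fold change was -0.81 (95% confidence interval -1.64 to 0.016, unadjusted p = 0.0542, adjusted p = 0.225). On RPKM, the ratio of Lats1 to Lats2 was 0.37 to 4.46 in controls, with a median of 0.97, and 0.57 to 5.37 after maternal depletion, with a median of 0.86. Neither kinase prevailed in either group. Of the Lats2 exon bases, 4.55% are shared with Xpo4.

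Amotl2 and Nf2, which act on LATS from the membrane, both missed the threshold, and Amotl2 varied widely between embryos. Amotl2 (ENSMUSG00000032531, chromosome 9, 102716672 to 102733418, plus strand) had 5.04, 36.7, 17.5, 3.89, 79.2, 59.9, 42.9, 127 and 12.4 CPM in controls 1 to 3 and 5 to 10. Ehmt2Mat embryos 1 to 10 had 37.5, 40.1, 15.8, 79.6, 145, 207, 291, 345, 0.79 and 96.8 CPM. Of the Ehmt2Mat embryos, 8 were above the control median and 4 above every control, while embryo 9 was below every control. The log2 fold change was 1.56 (standard error 0.70, 95% confidence interval 0.11 to 3.01), with an unadjusted p of 0.0362 and an adjusted p of 0.177, so Amotl2 did not pass. Among the +/- embryos alone, 3 controls had 5.04 to 17.5 CPM and 5 Ehmt2Mat embryos had 15.8 to 345 CPM, and the log2 fold change was 3.58 (standard error 0.92, adjusted p = 0.608). Nf2 (ENSMUSG00000009073, chromosome 11, 4765845 to 4849536, minus strand) had a lowest, median and highest level of 126, 216 and 358 CPM in controls and 90.4, 215 and 340 CPM in Ehmt2Mat embryos. The medians were nearly equal, and the log2 fold change was -0.092 (95% confidence interval -0.57 to 0.39, adjusted p = 0.872).

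The zygotic genotype was compared within each maternal group, to ask whether the embryo's own Ehmt2 copy went with the level of the members. Between the 5 -/- and the 5 +/- embryos of the Ehmt2Mat group, 0 of 10 members and 0.0% of 12195 genes passed (edgeR quasi-likelihood test), with 0 members and 2.21% of genes at an unadjusted p under 0.05. DESeq2 passed 15 genes and 0 of the members. The log2 fold changes (-/- minus +/-) of the members lay between -0.68 (Lats1) and 0.78 (Tead2). For Tead4 the value was 0.12 (95% confidence interval -0.46 to 0.70), with a median of 460 CPM in -/- and 376 CPM in +/- embryos. Between the 3 +/- and the 6 +/+ controls, again 0 of 10 members and 0.0% of 12646 genes passed, and 1 member (Amotl2) and 4.52% of genes had an unadjusted p under 0.05, while DESeq2 passed 107 genes and 0 of the members. Amotl2 had 5.04 to 17.5 CPM in the +/- controls and 3.89 to 127 CPM in the +/+ controls, a log2 fold change (+/- minus +/+) of -2.31 (95% confidence interval -4.09 to -0.54, unadjusted p = 0.0143, adjusted p = 0.9998). For Tead4 it was -0.28 (95% confidence interval -0.91 to 0.35). With 3 to 6 embryos in each subgroup the intervals of Tead2, Tead3 and Amotl2 spanned several log2 units. The zygotic comparisons share their embryos with the maternal one.

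**Figure D3:**
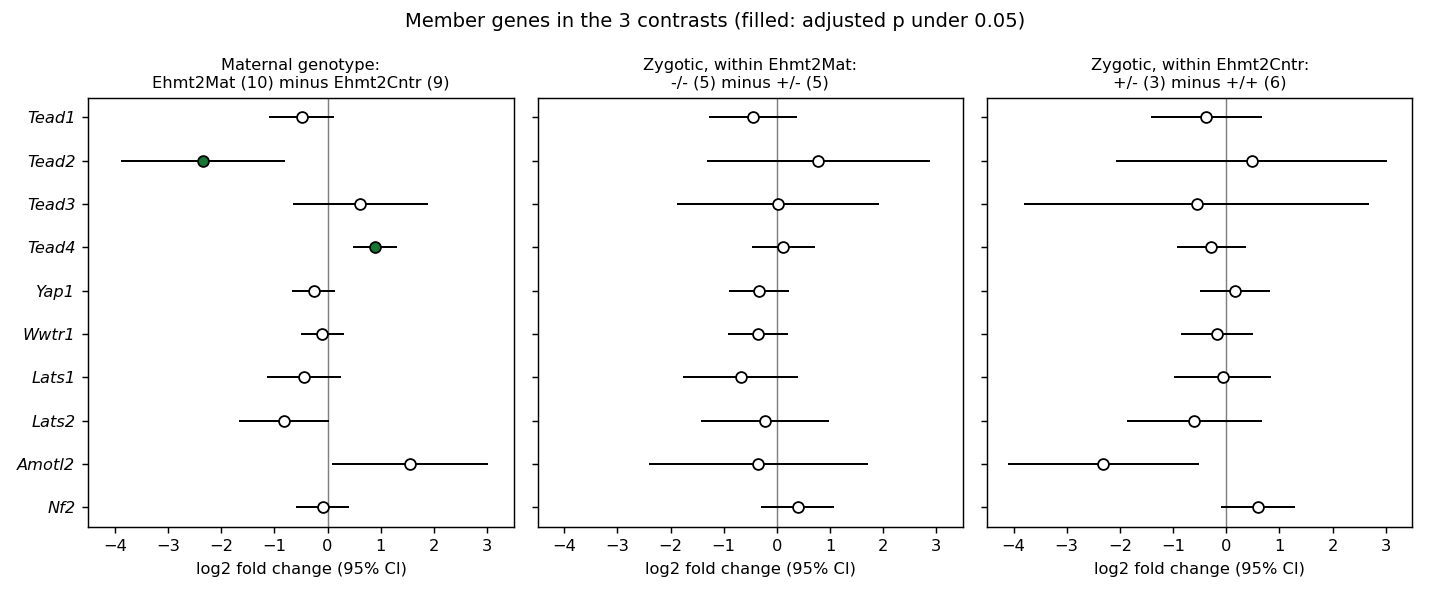
log2 fold change (x axis) of each member (y axis) between maternal genotypes (left), between zygotic -/- and +/- within Ehmt2Mat (middle) and between zygotic +/- and +/+ within Ehmt2Cntr (right), with 95% confidence intervals as bars. Filled points passed an adjusted p of 0.05, which only Tead4 (0.90) and Tead2 (-2.35) did, both in the left panel.

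Other genes of the pathway were described by 3 lists of known genes. Of 19 upstream components of the Hippo pathway, 16 were tested, 0 rose and 1 fell, and Ptpn14, Fat4 and Dchs1 were below the filter on low counts. The gene that fell was Taok1, a kinase that activates the Hippo kinases. It had a lowest, median and highest level of 223, 537 and 902 CPM in controls and 73.4, 168 and 363 CPM in Ehmt2Mat embryos, so that 9 of 10 Ehmt2Mat embryos were below every control. Its log2 fold change was -1.53 (standard error 0.25, adjusted p = 0.0008). The share of all genes tested that fell was 4.98%, to which 1 of 16 was close. The median of the list was -0.50, with 14 of 16 values negative, beside a median of -0.043 and 52.4% negative values over all genes tested. The log2 fold changes of Mob1a (-0.48, adjusted p = 0.104) and Mob1b (-0.60, adjusted p = 0.166), which encode adaptors of LATS, and of Stk4 (-0.50, adjusted p = 0.206), which encodes the Hippo kinase MST1, did not pass.

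Of 16 genes for other TEAD cofactors and for proteins that retain or degrade YAP and TAZ, 13 were tested, 0 rose and 1 fell, with Vgll1, Vgll2 and Vgll3 below the filter, and 1 of 13 was close to the 4.98% of all genes that fell. Ywhaz, which encodes a 14-3-3 protein of the family that holds phosphorylated YAP in the cytoplasm, had 36.3, 121 and 252 CPM in controls and 42.5, 64.7 and 110 CPM in Ehmt2Mat embryos. All 10 Ehmt2Mat embryos were below the control median. The log2 fold change was -0.99 (standard error 0.28, adjusted p = 0.0258). Without control embryo 3 or control embryo 7 the adjusted p was 0.0551 and 0.0618. The other members of the list with the highest levels did not pass: Ywhae had a log2 fold change of 0.30, Ywhab of -0.52 and Csnk1e of 0.47. The median of the list was -0.52, with 8 of 13 values negative, beside 52.4% over all genes.

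Among 12 genes known as targets of TEAD with YAP or TAZ, as trophectoderm genes, or (Sox2) as repressed by TEAD4, 6 were tested, 2 rose and 0 fell, where 4.37% of all genes tested rose and 4.98% fell. Tfap2c, a transcription factor of the trophectoderm that the study itself named from these samples, had a lowest, median and highest level of 141, 178 and 302 CPM in controls and 265, 317 and 616 CPM in Ehmt2Mat embryos, with 5 of 10 above every control. Its log2 fold change was 0.75 (standard error 0.20, adjusted p = 0.0183). Ccn1, which encodes a secreted matrix protein and whose promoter is printed above, had 0.87, 1.22, 1.63, 0.18, 4.07, 0.15, 3.17, 6.81 and 0.29 CPM in controls 1 to 3 and 5 to 10. Ehmt2Mat embryos 1 to 10 had 5.75, 13.1, 1.33, 12.8, 24.3, 10.6, 11.8, 27.3, 10.6 and 30.9 CPM. Thus 8 of 10 were above every control, and the log2 fold change was 2.86 (standard error 0.70, adjusted p = 0.0108). Its level was low, with 2 to 115 counts in controls and 11 to 628 in Ehmt2Mat embryos. Eomes, Krt8 and Krt18 did not pass (log2 fold changes -2.52, -0.33 and 0.54), nor did Gata3 (-1.44). Cdx2, Elf5, Ccn2, Ankrd1, Axl and Sox2 were below the filter and had no test. Cdx2 had a median of 0 CPM in both groups, but reached 33.1 CPM in controls and 1.56 CPM in Ehmt2Mat embryos, and 3 of 9 controls were above every Ehmt2Mat embryo. Sox2 reached 8.88 CPM in controls and 0.25 CPM in Ehmt2Mat embryos, with 4 controls above every Ehmt2Mat embryo. Ccn2, another classical YAP target, had up to 0.095 CPM in controls and up to 1.12 CPM in Ehmt2Mat embryos, 6 of which were above every control. The control level of Ccn2 did not exceed that of 3 counts (0.098 to 0.364 CPM). Elf5 reached 0.077 CPM in controls and 4.37 CPM in Ehmt2Mat embryos (3 above every control), and Axl 8.02 and 9.81 CPM (1 above). Ankrd1 reached 0.30 CPM in controls and 0 CPM in Ehmt2Mat embryos. In 8 of 10 Ehmt2Mat embryos more genes had a count than in any control but embryo 10. No share over all untested genes was computed for these counts of embryos. The genes of this list thus did not all differ in the direction of Tfap2c and Ccn1. The median of the 6 tested was 0.11. As for Tead4 and Tead2, the calls of Taok1, Ywhaz, Tfap2c and Ccn1 did not stand with the zygotic genotype as a covariate or in the +/- embryos alone, where 4 and 1 genes passed in all. Both of these fits take the maternal difference from the same few +/- embryos.

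**Figure D4:**
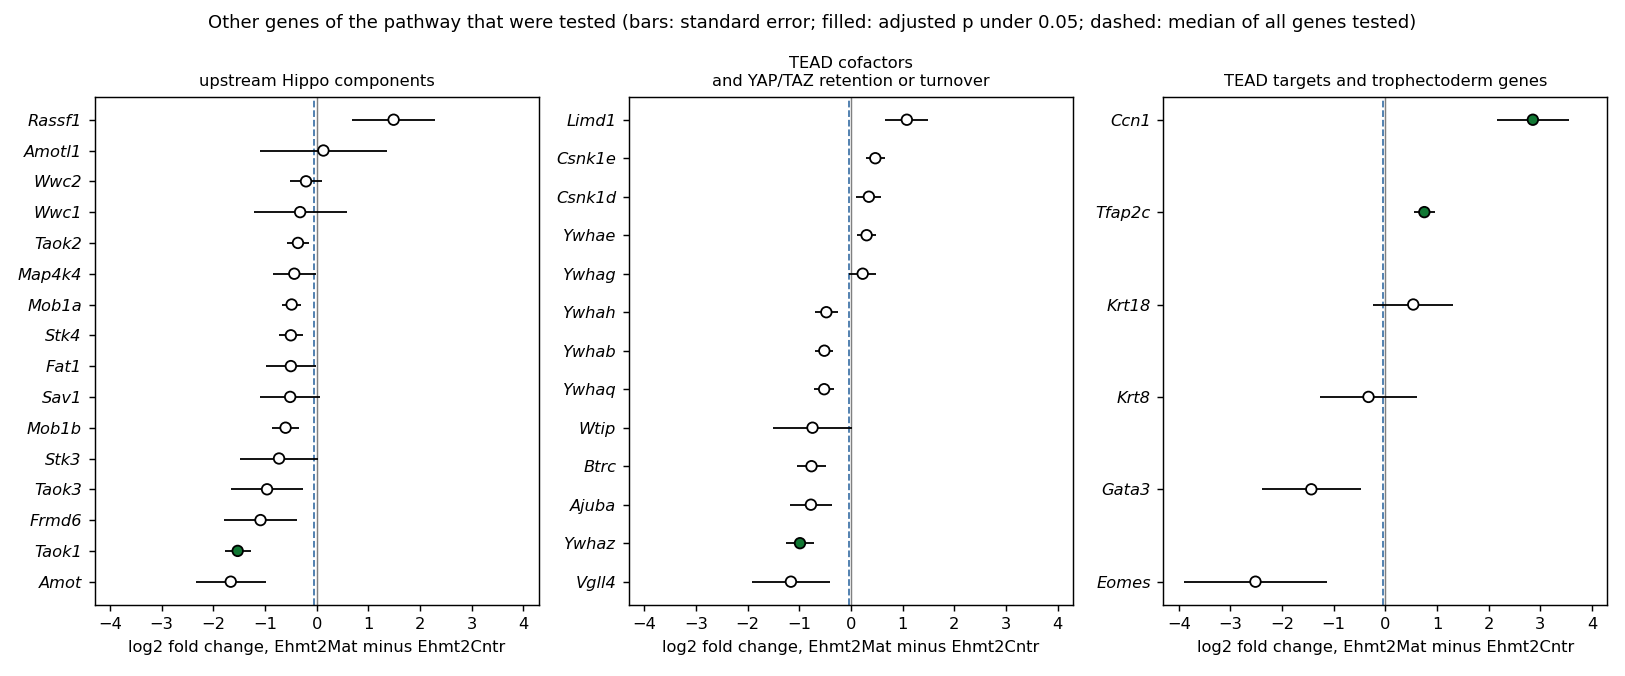
log2 fold change between Ehmt2Mat and Ehmt2Cntr (x axis) of the tested genes (y axis) in the lists of upstream Hippo components (16 genes), of TEAD cofactors with YAP and TAZ retention or turnover (13 genes) and of TEAD targets with trophectoderm genes (6 genes), with standard errors as bars. Filled points passed an adjusted p of 0.05 (Taok1, Ywhaz, Tfap2c and Ccn1), and the dashed line marks the median of all genes tested (-0.043).

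The genes whose level followed that of Tead4 most closely across the 19 embryos, after the mean of each maternal group was removed from log2 CPM, were Gm26885 (Pearson r = 0.81), Pak4 (0.77), R3hdm4 (0.77), Gm26602 (0.76) and Frmd8 (0.76), out of 11754 genes compared. These values are a description over 19 libraries, in which genes share depth and amplification. Pak4, which encodes a kinase of the p21-activated family, fell between the groups (log2 fold change -0.80, adjusted p = 0.0193) while Tead4 rose. Of the other members, Tead1 had the highest correlation with Tead4 (r = 0.56, at position 195 among all genes) and Lats1 the lowest (r = -0.42). That of Amotl2 was 0.49 and that of Tead2 was 0.29.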

How the data were processed

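RNA of 19 single 8C embryos (E2.5) was amplified and sequenced with single-end 50 bp reads. The authors deposited raw counts per Ensembl gene for each embryo, 1 table each, without normalisation. Per the file headers, featureCounts 1.5.0 counted reads over exons of Ensembl release 82 (GRCm38) with a minimum overlap of 10 bases, every overlapped gene being counted, multi-mapping reads kept and no strand option set, so that antisense reads are not separated and paralogues can share reads. TopHat2 and DESeq2 are named in the submitters' processing notes. The aligner of these tables is not given in the sources used here. Control embryo 4 was not analysed here.

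Groups were taken from the labels. edgeR 4.0.16 in R 4.3.3 was applied with filterByExpr, TMM, the quasi-likelihood test without covariates and Benjamini-Hochberg adjustment (threshold 0.05) over all genes tested, with separate fits for the zygotic comparisons. The standard error is the log2 fold change over the square root of F. CPM used TMM-scaled library sizes and RPKM divided them by exon length in kb. log2 CPM for the principal component and for correlations used a prior count of 2. The fits were tested on simulated data. The alternatives were RLE and upper-quartile factors, DESeq2 1.42.0, no filter, the embryo number as a block, the zygotic genotype as a covariate, +/- embryos only and each embryo left out. A fit corrected for the trend of log2 CPM with exon length within each embryo was chosen after seeing the data.

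The 10 genes and the lists were chosen with earlier results of these data known. Named genes were all members, Ehmt2, each list gene that passed the test, the 3 others of each list with the highest mean CPM among those that did not pass, and the 5 genes most like Tead4. Gata3, Cdx2, Sox2, Ccn2, Elf5, Axl and Ankrd1, and the somatic markers Inha, Inhba, Col1a1, Col3a1 and Cyp19a1, were given values after these were seen. Promoter windows are from RefSeq (GRCm38.p6).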

Additional observations from a re-analysis of the deposited data

Results flagged for a closer look

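The level of each member was checked in both maternal groups, 20 groups of 9 or 10 embryos in all, for a lowest or highest embryo far from the rest on log2(CPM + 1). In 1 of the 20, Lats2 in the Ehmt2Mat embryos, the lowest value stood apart: embryo 3 had 5.57 CPM (46 counts), and the next lowest, embryo 2, had 21.3 CPM. Chance alone would single out about 1 in 20 groups. Without this embryo the log2 fold change of Lats2 was -0.68 (adjusted p = 0.27), against -0.81 with it. Ehmt2Mat embryo 3 also had the highest score of all embryos on the first principal component (133.5), 1 count of Tead2 and the lowest Nf2 (90.4 CPM). Whether these go together was not tested.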

How the results depend on the processing

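Tead4 kept its direction in all settings tried, and its call except with the zygotic genotype as a covariate (log2 fold change 1.04, adjusted p = 0.36) and among +/- embryos alone. Tead2 kept its direction in all of them. The number of genes past the threshold, 1099, was 2019 with DESeq2, 4 with the covariate, 1 in +/- embryos and 884 to 1262 with an embryo left out. The number of members, 2, was 1 without the filter, 0 with the covariate, 0 in +/- embryos and 1 to 2 with an embryo left out. Upstream components went from 1 to 0 with the covariate and 0 in +/- embryos. Cofactors went from 1 to 4 with DESeq2, 0 with the covariate and 0 in +/- embryos, and 0 to 3 with an embryo left out. Targets went from 2 to 4 with DESeq2, 0 with the covariate and 0 in +/- embryos. The +/- comparison had 8 embryos. The covariate fit takes the maternal difference from the same 8, as +/+ and -/- each occurred in only 1 maternal group. The loss of calls in these 2 fits is thus not 2 separate results. The zygotic comparisons, with 0 genes, gave 15 (within Ehmt2Mat) and 107 (within Ehmt2Cntr) with DESeq2, and 0 to 1 in the latter with an embryo left out. The causes of the other differences were not tested. Uncalled values that changed sign were those of Wwtr1 (0.19 with the covariate, 0.18 in +/- embryos) and of Nf2 (-0.18 to 0.0053 with an embryo left out), and, in the zygotic comparison within Ehmt2Mat, of Tead3 (-0.015 with RLE, -0.012 with DESeq2). With an embryo left out, Tead3 there gave -0.18 to 0.15, Tead4 -0.018 to 0.38, Lats2 -0.51 to 0.13 and Amotl2 -1.10 to 0.30, and within Ehmt2Cntr Yap1 gave -0.11 to 0.31 and Lats1 -0.25 to 0.080. By CPM in place of RPKM, 7 of 10 members kept their place in the control order. Tead3 had 3 to 26 counts per embryo, which limits its precision.

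The embryo numbers of the labels are shared by 9 pairs across the groups. Deviations from the group means correlated by 0.012 on average between embryos of the same number (-0.16 to 0.086, 0 pairs over 0.1) and by -0.0012 between others, and 0 embryos correlated best with their own number, so the number does not pair them. With it as a block (18 embryos), 693 genes passed, 1 of the members (Tead4, log2 fold change 0.85, adjusted p = 0.0157; Tead2 -1.89, adjusted p = 0.357), 0 of the cofactors and 0 of the targets.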
